A study of Mus musculus with 9 samples.

Results

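Ttr, Kl, Folr1, Clic6, Kcnj13, Aqp1, Otx2, Enpp2, Slc4a5 and Slc13a4 are 10 genes known as markers of the choroid plexus epithelium, chosen by name out of 22092 genes counted. The counts are of RNA recovered with tagged ribosomes of astrocytes, from whole brains and from purified brain vessels with attached perivascular endfeet. The choroid plexus hangs into the brain ventricles as a sheet of cuboidal epithelial cells around fenestrated capillaries. Its epithelium secretes cerebrospinal fluid and delivers hormones, folate and ions into it by means of carriers, channels and transporters that line both faces of the cell. Otx2 is the homeobox transcription factor that specifies this epithelium, and Ttr, the carrier of thyroxine, is its best known product. Several of these genes also serve in other brain cells: Enpp2 is transcribed in oligodendrocytes and vascular cells, and Slc13a4 in the leptomeninges.

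The libraries came from translating ribosome affinity purification (TRAP), in which ribosomes that carry an eGFP-tagged L10a protein are pulled down together with their mRNAs. All mice were 2 months old, of the strain given as Aldh1L1 JD130 with the genotype tg:Aldh1L1-L10aGFP, in which the Aldh1l1 promoter drives the tagged protein, so that both groups carried the transgene and no library without it was used here. The 3 whole astrocyte TRAP libraries were each made from polysomes of 1 brain, from which the choroid plexus had been removed according to the methods of the study. The 6 endfeet TRAP libraries were each made from polysomes of vessels purified from the brains of 8 pooled mice. The methods state no removal of the choroid plexus for these, but refer to an earlier study for the vessel purification, which was not read here. Whole astrocyte libraries held 35984144 to 43521208 counts over genes and endfeet libraries 2319495 to 13450588, with endfeet library 6 the smallest. Levels are given below as counts scaled to a library total of 1000000 gene counts (CPM), and 3 counts, taken as the smallest amount that can be told from 0, equal 0.0689 to 0.0834 CPM in whole astrocyte TRAP and 0.223 to 1.29 CPM in endfeet TRAP.

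The comparison of endfeet TRAP with whole astrocyte TRAP addresses which mRNAs were recovered at a higher level from the vascular preparation than from the whole brain. Of the 10 genes, 9 were higher in endfeet TRAP and only Otx2 was not, where 20.7% of all 14427 genes tested were higher and 13.9% lower (edgeR's quasi-likelihood test, Benjamini-Hochberg adjusted p of at most 0.05). The log2 fold changes of those 9 ran from 2.48 for Clic6 to 6.42 for Slc4a5, and the median over all 10 genes was 5.06, beside 0.10 over all genes tested. For the same 9 genes every endfeet library lay above every whole astrocyte library, a separation that 17.7% of all genes tested showed in this direction and 25.7% in the other. All 10 genes passed the filter on low counts, which a gene can pass through its endfeet levels alone. Folr1, Aqp1 and Slc4a5 were low in whole astrocyte library 1 (0.417, 0.611 and 0.0278 CPM) and passed through endfeet TRAP, where they were high. With no filter beyond 1 count in total, 9 of the 10 genes were higher as well, beside 2765 of all 17542 genes tested. Whole astrocyte library 1 stood apart from the other two, with the lowest level of its group for all 10 genes, and without it 8 genes were higher. The call lost was that of Clic6 (log2 fold change 2.06, against 2.48 with it), which was lost as well without either of the other whole astrocyte libraries. In such bulk libraries, fewer cells of a type and less RNA per cell cannot be told apart. With no library lacking the transgene, RNA bound to tagged ribosomes was not measured apart from RNA recovered otherwise. The markers of other cell types, given further on, moved as well, and their part in these differences was not tested.

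**Figure D1:**
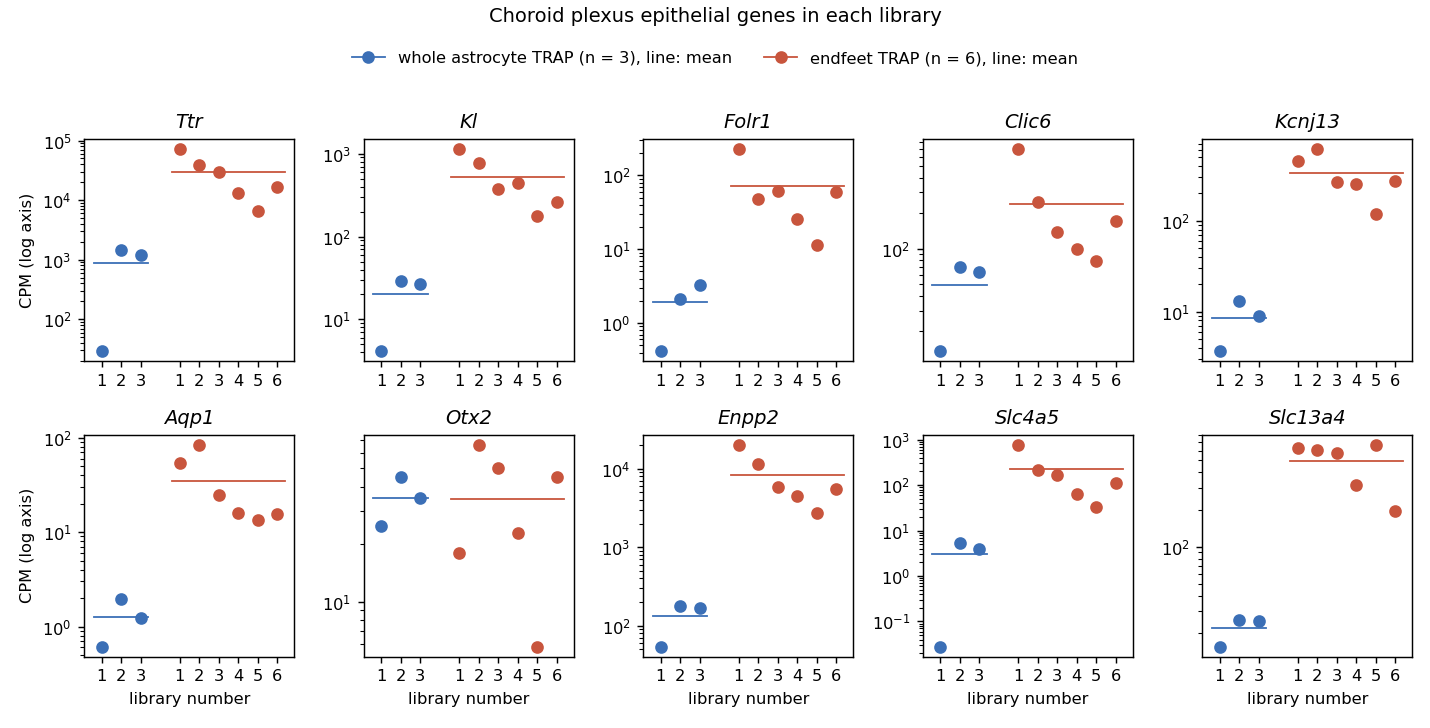
CPM of each of the 10 choroid plexus genes (log axis) in the 3 whole astrocyte TRAP libraries (blue) and the 6 endfeet TRAP libraries (red), with 1 point per library and a line at each group's mean. In all panels but that of Otx2 the endfeet points lie above the whole astrocyte points, and whole astrocyte library 1 is the lowest of its group in all 10.

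Ttr, which carries thyroxine and retinol-binding protein, was the most abundant of the 10 per length of transcript. It had 29.2, 1449 and 1178 CPM in whole astrocyte libraries 1, 2 and 3, and 71018, 38534, 29172, 12927, 6450 and 16727 CPM in endfeet libraries 1 to 6. The groups did not overlap: the lowest endfeet library was 4.45-fold above the highest whole astrocyte library, while levels within endfeet TRAP spanned 11.01-fold and within whole astrocyte TRAP 49.7-fold. The log2 fold change was 5.21 ± 1.18 (SE, adjusted p = 0.0043). Ttr alone took 7.10% of the gene counts of endfeet library 1 (95% Wilson interval 7.08 to 7.12) and 0.645% of those of library 5 (0.641 to 0.649), against 0.00292% in whole astrocyte library 1 (0.00275 to 0.0031), intervals that cover counting error only. Ranked by CPM per kb of transcript among all genes, Ttr was number 1 in 5 endfeet libraries and number 3 in library 5, and it was number 2940, 21 and 24 in whole astrocyte libraries 1, 2 and 3.

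Kl, the coreceptor for FGF23 that is also shed into cerebrospinal fluid, had 4.14, 28.9 and 27.1 CPM in whole astrocyte TRAP and a lowest, median and highest level of 177, 411 and 1127 CPM in endfeet TRAP. Folr1, the folate receptor that carries folate across the epithelium, had 0.417, 2.14 and 3.31 CPM in whole astrocyte TRAP and 11.4, 53.8 and 225 CPM as the lowest, median and highest endfeet level. In both genes endfeet library 1 was highest and library 5 lowest, and no endfeet value reached down to the whole astrocyte values. In mm10 coordinates of the GENCODE M21 annotation, Kl spans chr5:150952607-150993817 on the plus strand and Folr1 chr7:101858331-101870788 on the minus strand. The log2 fold changes were 4.88 ± 0.836 for Kl (SE, adjusted p = 0.00062) and 5.40 ± 1.13 for Folr1 (adjusted p = 0.00244).

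Enpp2 encodes autotaxin, the secreted enzyme that makes lysophosphatidic acid, and spans chr15:54838901-54952892 on the minus strand. It had 54.1, 178 and 169 CPM in whole astrocyte TRAP and 20147, 11627, 5932, 4493, 2707 and 5544 CPM in endfeet libraries 1 to 6, so that its lowest endfeet library lay 15.2-fold above its highest whole astrocyte library, the widest such gap among the 10 genes. The log2 fold change was 6.15 ± 0.852 (SE, adjusted p = 0.00012). By the mean CPM per kb of endfeet TRAP, Enpp2 ranked number 4 of all genes and Ttr number 1, whereas the means of whole astrocyte TRAP placed them at 1565 and 31.

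Slc4a5, the sodium bicarbonate cotransporter NBCe2, had the largest fold change of the 10 with all libraries, but not without endfeet library 1 (5.26, Enpp2 5.52) or with endfeet libraries 4 to 6 only (4.48, Enpp2 4.97 and Kcnj13 4.64). It spans chr6:83219828-83304945 on the plus strand. Whole astrocyte libraries 1, 2 and 3 held 1, 189 and 172 counts, that is 0.0278, 5.24 and 3.95 CPM, of which the first is under the 3 counts that can be told from 0. Endfeet libraries 1 to 6 had 769, 218, 163, 65.4, 33.2 and 110 CPM, again with library 1 highest and library 5 lowest and all above whole astrocyte TRAP. The log2 fold change was 6.42 ± 1.45 (SE, adjusted p = 0.00414).

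Kcnj13, the potassium channel Kir7.1, had 3.67, 13.0 and 9.03 CPM in whole astrocyte TRAP and 118, 274 and 611 CPM as lowest, median and highest endfeet level, with endfeet library 2 highest. It rose by 5.40 ± 0.660 on the log2 scale (SE, adjusted p = 4.4e-05). Its gene (chr1:87386363-87394729 on the minus strand) lies within Gigyf2 on the opposite strand, 623 of the 1270 bases of its counted transcript are also exon of Gigyf2, and the strand used for counting is not given in the sources used here, so that reads of the overlap cannot be assigned with certainty. Gigyf2 had 61.3 to 65.5 CPM in whole astrocyte TRAP and 81.9 to 261 CPM in endfeet TRAP, where endfeet library 1 was highest and library 5 lowest. Aqp1, the water channel (chr6:55336432-55348555 on the plus strand), stayed low in whole astrocyte TRAP at 0.611, 1.97 and 1.22 CPM and had 13.4, 20.4 and 84.0 CPM as lowest, median and highest endfeet level. Its groups did not overlap either, and its log2 fold change was 4.90 ± 0.906 (adjusted p = 0.00107).

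Slc13a4, a sodium-coupled sulfate transporter (chr6:35267957-35308131 on the minus strand), varied least among endfeet libraries of all 10 genes and in another order. It had 15.5, 25.5 and 25.2 CPM in whole astrocyte TRAP and 627, 609, 574, 317, 666 and 193 CPM in endfeet libraries 1 to 6, with library 5 highest and library 6 lowest. The log2 fold change of 4.59 ± 0.481 had the smallest standard error of the 10 (adjusted p = 1.3e-05). Clic6, an intracellular chloride channel protein (chr16:92485736-92541243 on the plus strand), had the smallest gap between the groups among the 9 genes that rose: 13.6, 70.6 and 63.9 CPM in whole astrocyte TRAP and 692, 250, 140, 99.7, 79.5 and 171 CPM in endfeet TRAP, the lowest of which was 1.13-fold above whole astrocyte library 2. Its log2 fold change of 2.48 ± 0.802 passed the threshold (SE, adjusted p = 0.0295) but did not without any of the 3 whole astrocyte libraries (2.06, 2.81 and 2.69 without library 1, 2 and 3, adjusted p = 0.106, 0.0614 and 0.0724).

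Otx2 (chr14:48657677-48673819 on the minus strand) did not pass the test. It had 25.0, 44.9 and 35.0 CPM in whole astrocyte TRAP and 18.0, 66.3, 50.4, 22.9, 5.80 and 44.8 CPM in endfeet libraries 1 to 6, so that 2 endfeet libraries lay above all whole astrocyte libraries, 3 lay below them and the groups overlapped. The log2 fold change was 0.05 ± 0.608 (SE, adjusted p = 0.958), and its sign depended on the setting. Endfeet library 1, the highest for 6 of the other genes, was the second lowest for Otx2.

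**Figure D2:**
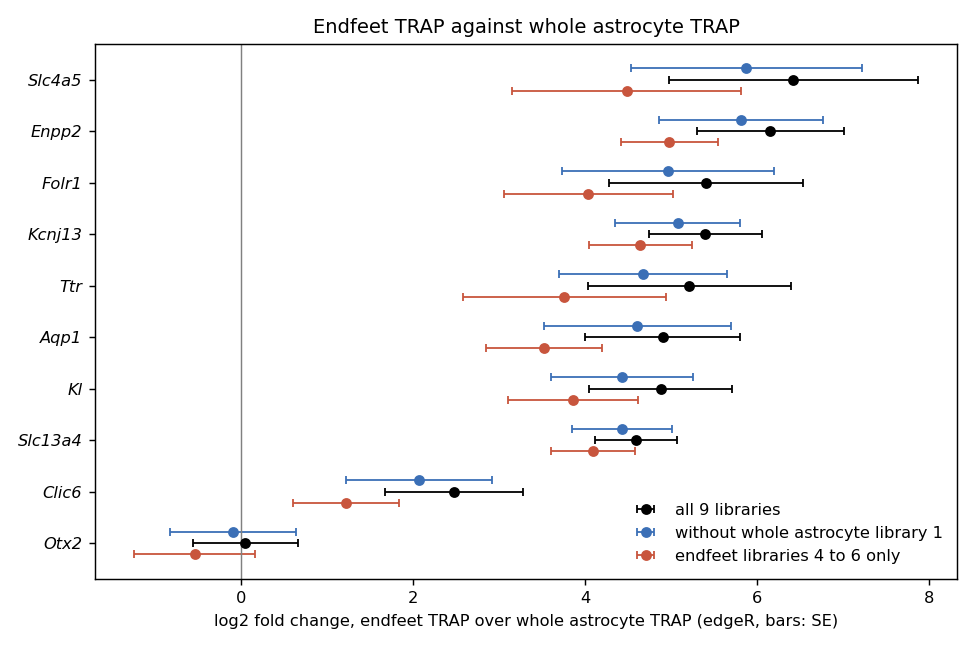
Log2 fold change of each of the 10 genes in endfeet TRAP over whole astrocyte TRAP from edgeR, with bars of 1 standard error, for all 9 libraries (black), without whole astrocyte library 1 (blue) and with endfeet libraries 4 to 6 only (red). The 9 genes other than Otx2 stay above 0 in all 3 fits, from 1.22 for Clic6 to 6.42 for Slc4a5, and are lower with endfeet libraries 4 to 6 only.

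Endfeet library 1 weighed on the size of several changes but not on which genes passed. Without it the log2 fold changes were 4.56 for Ttr, 4.39 for Folr1, 1.60 for Clic6, 5.52 for Enpp2 and 5.26 for Slc4a5, each more than 1.5-fold smaller as a ratio, and all 9 genes still passed. Without whole astrocyte library 3 the value of Folr1 was 5.998, and without library 2 that of Slc4a5 was 7.02. With whole astrocyte library 1 and endfeet library 1 both left out, 8 of the 10 genes rose, beside 2325 of all 14802 genes tested. Clic6 was at 1.14 (adjusted p = 0.0797) and Ttr at 3.96 (adjusted p = 0.00164).

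Promoter sequence was read for the genes with an entry in the RefSeq table of build GRCm38.p6, which held 9 windows of 300 bases (250 before and 50 after a transcription start) for 6 of the 10 genes: Kl, Kcnj13, Aqp1, Otx2, Slc4a5 and Slc13a4. The windows were searched on both strands for TATAAA, which reads TTTATA on the opposite strand, and for TAATCC, which reads GGATTA there and is the core sequence bound by Otx-type homeodomains, 2 motifs that do not overlap each other in these windows. TATAAA was present in 3 of the 9 windows, of Kcnj13, Slc4a5 and Otx2 (a window other than the one shown), and in 13.6% of all 32851 windows of the table. TAATCC was present in 1 window, of Otx2, and in 7.06% of all. Kcnj13 and Slc4a5 are shown as genes that rose and had the motif, and Otx2 as the gene that did not pass the test. The Kcnj13 window is chr1:87394680-87394979 on the minus strand, the Slc4a5 window chr6:83237125-83237424 on the plus strand and the Otx2 window chr14:48665060-48665359 on the minus strand. Capitals mark the motif, and letters run 5′ to 3′ along the gene.
Kcnj13: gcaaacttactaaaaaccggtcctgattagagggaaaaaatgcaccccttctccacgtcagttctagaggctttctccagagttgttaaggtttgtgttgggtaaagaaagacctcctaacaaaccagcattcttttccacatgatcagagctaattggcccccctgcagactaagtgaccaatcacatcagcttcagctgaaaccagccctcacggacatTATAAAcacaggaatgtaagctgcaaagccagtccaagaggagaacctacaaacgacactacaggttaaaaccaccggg
Slc4a5: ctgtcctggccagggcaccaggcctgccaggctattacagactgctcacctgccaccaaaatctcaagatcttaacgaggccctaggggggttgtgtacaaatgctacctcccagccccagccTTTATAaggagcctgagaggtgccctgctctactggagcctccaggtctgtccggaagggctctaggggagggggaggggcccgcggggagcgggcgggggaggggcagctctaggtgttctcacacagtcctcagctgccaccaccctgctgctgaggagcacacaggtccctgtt
Otx2: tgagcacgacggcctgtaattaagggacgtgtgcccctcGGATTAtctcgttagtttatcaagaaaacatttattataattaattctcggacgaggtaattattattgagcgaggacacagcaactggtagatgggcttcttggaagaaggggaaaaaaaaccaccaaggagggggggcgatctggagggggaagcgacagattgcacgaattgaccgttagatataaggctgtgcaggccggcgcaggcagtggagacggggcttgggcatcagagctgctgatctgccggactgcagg
In Kcnj13 the TATAAA began 29 bases before the start, which is the start of the counted transcript too. In Slc4a5 the motif stood as TTTATA 127 bases before the start, and in Otx2 the TAATCC core stood as GGATTA 211 bases before a start that is 3 bases from that of the counted transcript.

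The gap between whole astrocyte library 1 and the other two differed from gene to gene. That library was the lowest of the 3 for 10 of 10, where it was the lowest for 44% of all genes tested. Libraries 2 and 3 together were 44.6-fold above it for Ttr (95% counting interval 41.9 to 47.4), 6.74-fold for Kl, 6.66-fold for Folr1, 4.92-fold for Clic6, 3.20-fold for Enpp2 and 1.58-fold for Otx2, and the ratio for Slc4a5 was 163 with an interval of 29.1 to 6467 because it rests on 1 count. Libraries 2 and 3 differed from each other much less, with 52219 and 51276 counts of Ttr against 1050 in library 1.

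Among the 12980 genes with a mean of at least 1 CPM in whole astrocyte TRAP, Ttr and Slc4a5 were the lowest and next lowest in library 1 relative to the mean of libraries 2 and 3, on the scale log2(CPM + 0.1). Of the 20 lowest genes, 5 were among the 10 genes (Ttr, Slc4a5, Kl, Folr1 and Clic6) and 8 were among 34 other genes listed for the choroid plexus epithelium (Kcne2, Tmem72, 1500015O10Rik, Sostdc1, Krt18, Calml4, Cldn2 and F5). The other 7, Prr32, Wdr86, Drc7, Tc2n, Serpinb1b, Mustn1 and Lbp, were on no list used here and are named by this rank alone. A ratio below -1 was found for 8 of the 10 genes, all but Otx2 and Slc13a4, and for 1.03% of the 12980 genes. The mean of log2(CPM + 1) in library 1 minus that in the other two was -1.90 over the 10 genes, -0.86 over the 34 other choroid plexus genes, -0.35 over fibroblasts and leptomeninges and -0.31 over ependymal cells, all lower in library 1. Over endothelial cells, mural cells, neurons and astrocytes it was 0.02, -0.02, 0.05 and 0.05.

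**Figure D3:**
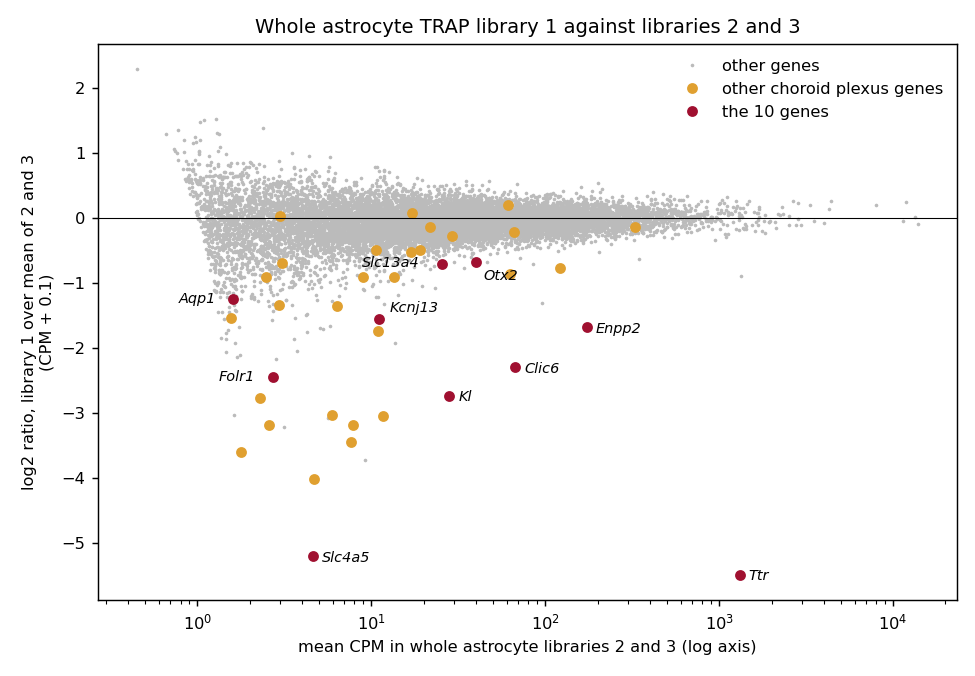
Log2 ratio of whole astrocyte TRAP library 1 to the mean of libraries 2 and 3, on CPM + 0.1, against that mean (log axis), with 1 point for each of the 12980 genes of at least 1 CPM. Ttr and Slc4a5 lie lowest at -5.49 and -5.20, and the genes of the choroid plexus (red and orange) are 13 of the 23 points below -2.

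Within endfeet TRAP most of the 10 genes had their lowest and highest levels in the same libraries. Library 5 was the lowest of the 6 for 9 of 10 genes and library 1 the highest for 6, with library 2 the highest for 3. The share of all genes with such ranks was not worked out, so these counts do not set the 10 genes apart. Ttr, Enpp2 and Slc4a5 had the same order of libraries, from high to low 1, 2, 3, 6, 4 and 5. The counts of all 10 genes together made up 9.51% of gene counts in library 1, 5.28% in library 2, 3.68% in library 3, 1.87% in library 4, 1.03% in library 5 and 2.34% in library 6, against 0.0146%, 0.182% and 0.152% in whole astrocyte libraries 1, 2 and 3.

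The running numbers of the libraries fall into separate series. Endfeet libraries 1 to 3 belong to the lower numbers, and endfeet libraries 4 to 6 follow directly on the whole astrocyte libraries in the higher ones. The meaning of the numbers is not stated. The mean of endfeet libraries 1 to 3 was above that of libraries 4 to 6 for 10 of the 10 genes, from 1.54-fold for Slc13a4 to 5.51-fold for Slc4a5 with a median of 3.02-fold, where 51.8% of all genes tested had the higher mean in libraries 1 to 3 and their median ratio was 1.02. Within the series that holds both groups, that is endfeet libraries 4 to 6 against whole astrocyte TRAP, 8 of 10 genes were still higher. In that fit 2798 of all 14339 genes tested were higher and 2819 lower. The log2 fold changes were 3.76 ± 1.18 for Ttr (SE, adjusted p = 0.0397), 4.97 ± 0.564 for Enpp2 (adjusted p = 7.2e-04), 4.64 ± 0.596 for Kcnj13 (adjusted p = 0.00118) and 1.22 ± 0.616 for Clic6 (adjusted p = 0.154).

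Relative to Ttr, 8 of the other 9 genes spanned less across the endfeet libraries than their own levels did, and Slc13a4 spanned more (11.7-fold against 3.46-fold). Across the whole astrocyte libraries the ratio spanned more than the level for 8 of 9, all but Slc4a5, as for Otx2 (28.9-fold against 1.79-fold) and Enpp2 (15.1-fold against 3.29-fold). Expressed per 1000 of Ttr in the same library, on CPM per kb, 7 of the other 9 genes spanned less than 4-fold across the endfeet libraries, from 2.06-fold for Enpp2 (87.9 to 181) to 3.04-fold for Kcnj13 (6.04 to 18.4), although Ttr itself spanned 11.01-fold. Otx2 spanned 10.6-fold (0.140 to 1.48), and Slc13a4 ran from 3.06 to 35.8. In whole astrocyte libraries 2 and 3 both ratios lay within the endfeet range for 5 of 9 genes, namely Kl (4.63 and 5.33, endfeet 2.99 to 7.99), Folr1, Kcnj13, Aqp1 and Slc13a4. They lay above it for Clic6 (15.4 and 17.1, endfeet 1.51 to 3.89) and Otx2 (17.1 and 16.4), and below it for Enpp2 (53.0 and 62.0) and Slc4a5 (0.838 and 0.777, endfeet 1.17 to 2.51). In whole astrocyte library 1 the ratio was outside the endfeet range for all 9, above it for all but Slc4a5, which has 1 count there. These ratios share Ttr as their divisor, have no counterpart over all genes here and are descriptions without a test.

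**Figure D4:**
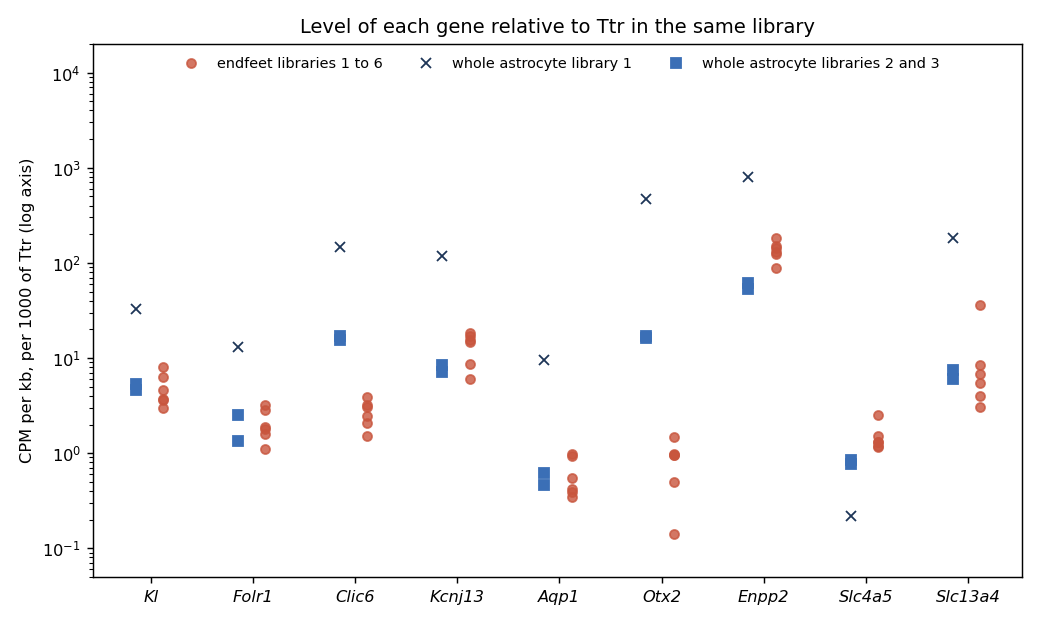
CPM per kb of each gene per 1000 of Ttr in the same library (log axis), with 1 point per library for endfeet TRAP (red circles), whole astrocyte libraries 2 and 3 (blue squares) and whole astrocyte library 1 (crosses). The squares fall within the red range for 5 of 9 genes, and the crosses for none.

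Most other genes known from the choroid plexus epithelium rose as well. Of the 34 further genes listed for this epithelium 33 were tested, and 25 rose, 0 fell and 8 did not pass, with a median log2 fold change of 4.41. The list was not limited to genes of this epithelium alone. Igf2, for example, is shared with the leptomeninges, whose markers rose as well, as did endothelial markers (both given further on). Which cells the 25 calls came from was not tested. Of all 34, 30 were lowest in whole astrocyte library 1 among the whole astrocyte libraries, and 34 of 34 had the higher mean in endfeet libraries 1 to 3, with a median ratio of 2.30-fold. Igf2, a growth factor of the choroid plexus and the leptomeninges, had 71.5, 126 and 118 CPM in whole astrocyte TRAP and 1919 to 5149 CPM in endfeet TRAP, and rose by 5.08 ± 0.443 on the log2 scale (SE, adjusted p = 2.9e-06). The prolactin receptor Prlr rose by 6.29 ± 0.887, from 3.22, 11.8 and 10.04 CPM to 197 to 1215 CPM. Coagulation factor V, F5, had 0.250, 1.80 and 2.76 CPM in whole astrocyte TRAP and 108 to 489 CPM in endfeet TRAP. For all 3 genes the endfeet libraries lay above the whole astrocyte libraries.

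Among transporters and enzymes of ion and fluid transport, the sodium potassium chloride cotransporter Slc12a2 rose by 3.72 ± 0.453 (SE), carbonic anhydrase Car12 by 4.97 ± 0.888 and the copper importer Slc31a1 by 2.82 ± 0.402 on the log2 scale. Trpm3, a cation channel, rose by 2.90 and the angiotensin-converting enzyme Ace by 5.35. The secreted proteins Sostdc1, an antagonist of BMP and Wnt signals, Igfbp2 and the collagen chain Col8a1 rose by 5.50, 2.61 and 7.55, and 1500015O10Rik by 4.91. Without endfeet library 1 the value of Col8a1 was 6.80 and that of Car12 4.33, without whole astrocyte library 2 that of 1500015O10Rik was 5.61, and without whole astrocyte library 3 that of F5, 7.59 with all libraries, was 8.22. With endfeet libraries 4 to 6 only, Sostdc1 was at 3.44, Col8a1 at 5.74, 1500015O10Rik at 3.50 and Car12 at 3.36, and all 12 still passed. With all libraries these 12 genes had an adjusted p of at most 0.0018. The 8 genes that did not pass were Ezr, Vat1l, Calml4, Msx1, Wfdc2, Krt18, Lmx1a and Slco1a5, which have log2 fold changes between 0.33 for Ezr and 3.97 for Slco1a5, and they include the homeobox factors Msx1 at 0.62 ± 0.569 and Lmx1a at 1.29 ± 1.25. Krt8 was not tested for want of counts.

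Relatives of the 10 genes that other brain cells use were read as well. Of 16 such genes 15 were tested, of which 9 rose and 1 fell, with a median log2 fold change of 1.32. The astrocyte water channel Aqp4 had 611, 445 and 500 CPM in whole astrocyte TRAP and 612 to 2127 CPM in endfeet TRAP, with 1.67 ± 0.406 as its log2 fold change (SE, adjusted p = 0.00635), beside 4.90 for Aqp1. For the astrocyte potassium channel Kcnj10 it was 1.07 ± 0.349 (adjusted p = 0.0311), beside 5.40 for Kcnj13, and for the bicarbonate cotransporter Slc4a4 0.61 ± 0.317 (adjusted p = 0.155), beside 6.42 for Slc4a5. Slc13a3, a dicarboxylate transporter, rose by 3.36 ± 0.557 and Clic4 by 1.32 ± 0.256. Folr2, the folate receptor of macrophages, had 0.278, 0.111 and 0.391 CPM in whole astrocyte TRAP and 0 to 18.1 CPM in endfeet TRAP, and rose by 4.52 ± 1.53. Otx1, the paralogue of Otx2, fell by 3.51 ± 0.995 (adjusted p = 0.0152), from 56.0, 64.6 and 59.0 CPM to between 0 and 12.2 CPM. The differences between members of a pair were not tested.

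Markers of other cell types also differed between endfeet TRAP and whole astrocyte TRAP, some higher and some lower. All 10 endothelial markers rose with a median log2 fold change of 9.57, and their summed level was 5.91 to 8.27 CPM in whole astrocyte TRAP and 2700 to 5740 CPM in endfeet TRAP. All 10 mural markers rose (median 6.48), from 37.5 to 39.8 CPM in sum to 2931 to 7954 CPM. Of the 10 markers of fibroblasts and leptomeninges 8 rose (median 4.11), with sums of 43.5 to 62.4 and of 709 to 1438 CPM, of which Dpt was listed at 0 in endfeet libraries 4 and 6. Of 12 ependymal markers, which belong to the other cell layer of the ventricle, 6 rose and 6 did not pass (median 1.99), with sums of 40.3 to 58.7 and of 154 to 253 CPM. Their highest members in endfeet TRAP were Hydin, at 24.5 to 89.2 CPM, and Foxj1, at 6.04 to 73.9 CPM.

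Of the microglia and macrophage markers 7 of 10 rose (median 3.43), with sums of 22.6 to 27.0 and of 192 to 388 CPM. No neuronal and no oligodendrocyte marker rose, and 3 of 10 and 1 of 10 fell, with sums of 1246 to 2083 CPM and of 255 to 532 CPM in endfeet TRAP. Of the 10 astrocyte markers 5 fell, Glul, Aldoc, Gjb6, Sox9 and Aldh1l1, and 0 rose, and the sum was 36065 to 39385 CPM in whole astrocyte TRAP and 11194 to 29766 CPM in endfeet TRAP. Plvap, a marker of fenestrated endothelium such as that of the choroid plexus, had 3.72 to 4.16 CPM in whole astrocyte TRAP, 5.22, 2.89 and 6.16 CPM in endfeet libraries 1, 2 and 3, and was at 0 counts in endfeet libraries 4, 5 and 6, where up to 0.237, 0.223 and 1.29 CPM could have gone unseen. It did not pass the test (log2 fold change -0.63 ± 1.47, SE, adjusted p = 0.772).

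The summed level of the 10 choroid plexus genes spanned 9.27-fold across the endfeet libraries, from 10261 to 95138 CPM, and 12.4-fold across whole astrocyte libraries, from 146 to 1819 CPM. For the lists of ependymal cells, fibroblasts, endothelial and mural cells, oligodendrocytes, neurons, microglia and macrophages, and astrocytes, the span was 1.64-fold to 2.71-fold in endfeet TRAP and 1.02-fold to 1.46-fold in whole astrocyte TRAP. The sum over the 34 other choroid plexus genes spanned 2.69-fold in endfeet TRAP (4615 to 12394 CPM) and 1.32-fold in whole astrocyte TRAP (657 to 866 CPM), within the range of those lists. A few genes carried that sum: Ezr was 299 of 657 CPM in whole astrocyte library 1, and Igf2 4344 of 8208 CPM in endfeet library 3. Single genes varied unequally. Among the 12 named above as higher, the span was 2.40-fold (Slc31a1) to 19.5-fold (Col8a1) in endfeet TRAP. In whole astrocyte TRAP it was 1.13-fold (Slc12a2) to 15.6-fold (1500015O10Rik). Ttr made up most of the sum over the 10 genes in endfeet TRAP, and without it the other 9 spanned 6.33-fold there and 3.16-fold in whole astrocyte TRAP. Of those 9, Enpp2 held 20147 of 24119 CPM in endfeet library 1. Endfeet library 1, where the 10 genes were highest, held the lowest sums of the endothelial and mural lists. Endfeet library 5, where they were lowest, held the highest sum of the astrocyte list.

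**Figure D5:**
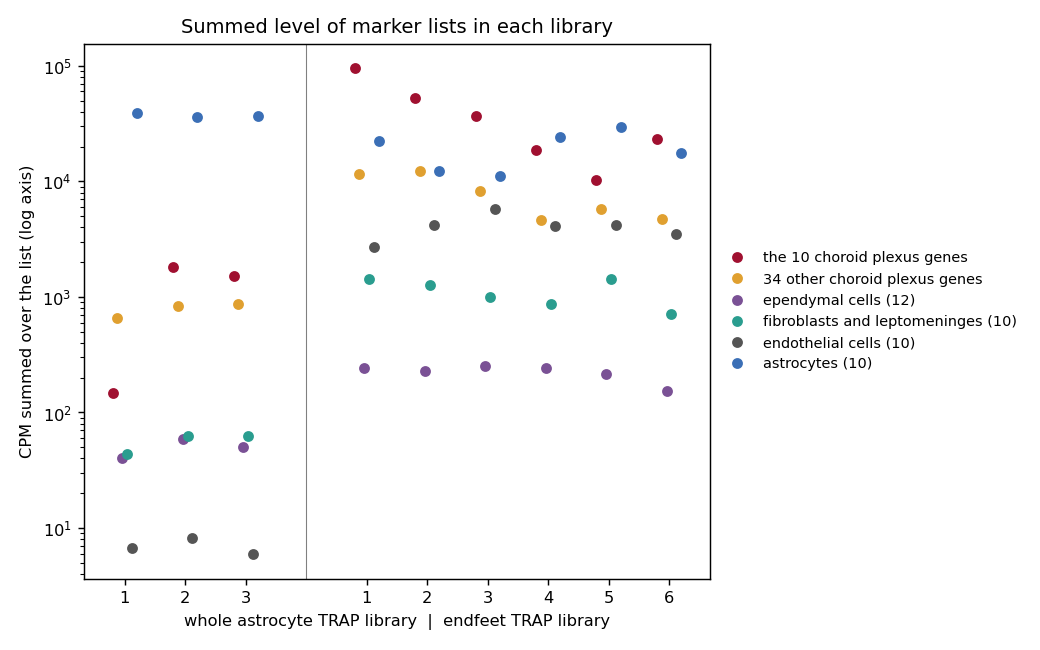
CPM summed over each marker list (log axis) in the 3 whole astrocyte TRAP libraries (left) and the 6 endfeet TRAP libraries (right), with 1 point per list and library and the number of genes of each list in the legend. The sum over the 10 choroid plexus genes runs from 146 CPM in whole astrocyte library 1 to 95138 CPM in endfeet library 1, of which Ttr alone is 71018 CPM. The sums over the other lists vary less within each group, that of the 34 other choroid plexus genes included (657 to 866 and 4615 to 12394 CPM).

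Outside the choroid plexus lists, the genes whose levels across the 6 endfeet libraries were most like the mean profile of the 10 were Slc4a10, Rbm47, Wdr75, Zhx2 and Tbc1d9. Absence from the lists does not mean that a gene is absent from the choroid plexus epithelium. Likeness was measured among 11608 genes as the root mean square difference of centred log2(CPM + 1) values, which was 0.19 and 0.20 for the nearest, Slc4a10 and Rbm47, and 1.21 for the median gene. Slc4a10, another sodium bicarbonate transporter, had 28.9, 27.5 and 29.8 CPM in whole astrocyte TRAP and 553, 395, 215, 180, 101 and 150 CPM in endfeet libraries 1 to 6. It rose by 3.36 ± 0.595 on the log2 scale (SE, adjusted p = 7.9e-04), and unlike the 10 genes it was not lowest in whole astrocyte library 1. Rbm47, an RNA-binding protein, had 6.20, 14.5 and 13.8 CPM in whole astrocyte TRAP and 21.4 to 99.97 CPM in endfeet TRAP, with endfeet library 5 lowest and a log2 fold change of 2.45 ± 0.610 (adjusted p = 0.00744). Wdr75, Zhx2 and Tbc1d9 did not pass the test, with log2 fold changes of -0.06, -0.77 and 1.32. Of the 10 genes themselves, Enpp2 was nearest to their mean profile at 0.17, and Slc13a4 and Otx2 were farthest at 0.94 and 0.98. Each of the 10 is part of that mean, which lowers its own distance relative to genes outside the lists.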

How the data were processed

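RNA recovered with GFP-tagged ribosomes was sequenced in 9 libraries as reads of 50 bp after amplification. The authors filtered the reads, aligned them to mm10 with Bowtie, removed reads aligned more than once and counted overlaps with Ensembl annotation by HTSeq-count (0.5.3 per the labels). The deposited values are raw counts per transcript, neither normalized nor filtered. Of 75466 transcripts, 73164 matched GENCODE M21 (same build), in 22092 genes, and 2302 did not. A gene's counts are those of its transcript with the largest CPM summed over libraries.

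The groups were compared with edgeR 4.0.16 in R 4.3.3 (TMM, filterByExpr, glmQLFTest, Benjamini-Hochberg adjustment, threshold 0.05). Standard errors were derived from each fold change and its F statistic (absolute log2 value over the root of F). The tests were also run on simulated counts, but the outcome is not given here and lends no weight to the adjusted p-values. Common dispersions were 0.725 among endfeet and 0.0141 among whole astrocyte libraries. Whether the tests keep their error rate under so unequal a spread was not shown. Intervals cover counting error only.

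The 10 genes, the other lists and the tests were chosen with earlier results of these data known. Named are the 10 genes, their relatives, up to 12 called genes of the wider choroid plexus list and up to 6 of every other list by highest mean endfeet CPM, and the 5 genes nearest to the mean profile. Genes of rank in whole astrocyte library 1, genes that missed the threshold, Gigyf2 and Dpt were named after their values were seen. Alternatives were DESeq2 1.42.0, its size factors, other filters, summed transcripts, the library series, the replicate block, another pseudocount and each library left out. The removal of library 1 of both groups was added after seeing the data. Tables were handled in Python 3.11.15 with pandas 2.3.3.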

Additional observations from a re-analysis of the deposited data

Results flagged for a closer look

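In 3 of the 10 genes tested over the 6 endfeet libraries, endfeet library 1 lay far above the others by Dixon's test: Folr1 at 225 CPM, Clic6 at 692 CPM and Slc4a5 at 769 CPM. Chance marks about 1 in 20 groups of normally distributed values, and the genes share the same libraries. The test was run on CPM rather than on a log scale. Levels spanned 19.7-fold, 8.70-fold and 23.1-fold across the endfeet libraries in these 3 genes, so that rate need not hold here. Without endfeet library 1 all 3 genes still rose, by 4.39, 1.60 and 5.26 on the log2 scale. Groups of 3 libraries were not tested in this way.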

How the results depend on the processing

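Between 8 and 9 of the 10 genes were higher in endfeet TRAP under every alternative run, and 18 to 26 genes of the wider choroid plexus list. The number tested differed: with at least 10 counts in every library, 8 of 9 genes tested and 18 of 21 of the wider list were higher. In that fit 2351 of all 8480 genes tested were higher. With the main filter 33 of the wider list were tested. Ttr, Kl, Folr1, Kcnj13, Aqp1, Enpp2 and Slc13a4 passed throughout, and Slc4a5 wherever it was tested, which it was not with at least 10 counts in every library. The log2 fold change of Ttr ranged from 3.76 to 6.15. Clic6 missed the threshold with the library series as a covariate (1.35, adjusted p = 0.171), with endfeet libraries 4 to 6 only, without each whole astrocyte library and without library 1 of both groups. Otx2, which passed under none, turned to -0.046 with no filter, -0.10 with at least 10 counts in every library, -0.41 with the series as a covariate, -0.54 with endfeet libraries 4 to 6 only, -0.014 with summed transcripts, -0.093 without library 1 of both groups, and ranged from -0.17 to 0.25 with 1 library left out. The cause was not tested. Over all genes, 1874 to 3380 were higher and 1171 to 2642 lower with 1 library left out, the fewest without a whole astrocyte library, against 2991 and 2006 with all 9. Replicate numbers do not pair the samples, since the deviations of same-numbered libraries had correlations of -0.03, 0.02 and 0.03. With the replicate block 8 of the 10 genes were higher (Clic6 2.71, adjusted p = 0.0513), 26 of the wider list, and 2501 genes higher and 1958 lower over all. The difference in the mean of log2(CPM + pseudocount) over the 10 genes, 4.10 with a pseudocount of 1, was 4.40 with 0.1 and 4.11 on TMM-scaled values. DESeq2 gave 9 of 10, beside 3715 of all 14427 genes tested. Depth limits the low levels most, in endfeet library 6, and the common dispersion of edgeR was 0.725 among endfeet and 0.0141 among whole astrocyte libraries.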
